A study of Mus musculus with 8 samples.

Results

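Chromatin accessibility around 5 mouse genes of the Nodal pathway, Nodal, Lefty1, Lefty2, Tdgf1 and Foxh1, was described in mouse embryonic stem cells under control and pausing conditions. The members were all deposited peaks whose centre lay within 50 kb of the span of 1 of these genes, 97 of 134407 peaks. The windows of Nodal, Lefty1, Lefty2, Tdgf1 and Foxh1 held 25, 23, 25, 20 and 18 peaks, and 14 peaks lay in both Lefty windows. Only 20 of the 97 peaks had a member as their nearest protein-coding gene: 8 for Nodal, 4 for Lefty1, 5 for Lefty2, 3 for Tdgf1 and 0 for Foxh1. The other 77 are nearer to neighbouring genes and are named as such.

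The cells were wild-type E14 embryonic stem cells grown on gelatin in serum and LIF. The study has 4 libraries of the control condition and 4 of paused cells, which had received INK128, an mTOR inhibitor, at 200 nM for 24 h. All 8 libraries come from 1 cell line without a genetic change, and each was made by ATAC-seq from 50000 live cells. ATAC-seq uses the Tn5 transposase to insert adapters into open chromatin, so that more reads at a site mean a more accessible site. The labels do not say whether replicates were separate cultures, and p-values then measure the spread between these libraries, which may be technical. A lower value can come from fewer cells with an open site or from a less open site in each cell, and these cannot be told apart in bulk samples.

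Nodal is a secreted ligand of the TGF-beta family that signals through activin receptors to Smad2 and Smad3. Tdgf1 encodes Cripto, the co-receptor that lets Nodal engage its receptors, and Foxh1 encodes a forkhead factor that brings Smad complexes to DNA. Lefty1 and Lefty2 are feedback inhibitors that are themselves induced by the pathway. All are active in embryonic stem cells and in the early epiblast. Nodal is known to have an enhancer in its first intron and several upstream of its start site, and Lefty genes have enhancers of the same Foxh1-bound type. The coordinates of these enhancers were not used here, so each peak is given by its position and distance only.

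The start sites of Nodal and Tdgf1 were taken from a RefSeq table of 300-base promoter windows (GRCm38.p6), 250 bases before the start site and 50 after it. Such windows were available for only these 2 of the 5 genes, and both are shown. No deposited peak overlapped either of them, so that the nearest deposited peaks lie outside these bases. Reads within the windows themselves were not counted. The capitals mark the 50 bases from the start site on. The Nodal window is chr10:61417722-61418021 on the plus strand and the Tdgf1 window is chr9:110946109-110946408 on the minus strand.
Nodal: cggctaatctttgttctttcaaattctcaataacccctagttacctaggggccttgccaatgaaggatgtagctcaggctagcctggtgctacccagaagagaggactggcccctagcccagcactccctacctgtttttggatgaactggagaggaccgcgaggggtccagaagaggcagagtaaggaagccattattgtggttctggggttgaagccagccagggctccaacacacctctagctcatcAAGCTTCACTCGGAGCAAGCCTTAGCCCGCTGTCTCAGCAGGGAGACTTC
Tdgf1: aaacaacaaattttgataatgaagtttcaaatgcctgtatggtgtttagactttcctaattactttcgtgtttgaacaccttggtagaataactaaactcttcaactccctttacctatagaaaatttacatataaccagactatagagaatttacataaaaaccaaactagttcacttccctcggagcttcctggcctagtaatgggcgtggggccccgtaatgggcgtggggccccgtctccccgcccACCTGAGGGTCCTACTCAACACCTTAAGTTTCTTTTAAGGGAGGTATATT
The Nodal window was 54.0% G or C and the Tdgf1 window 41.7%, against a median of 52.7% over 32851 promoter windows. The Tdgf1 window holds gtaatgggcgtggggcccc at 2 places, and 1.48% of all windows hold a repeat of at least these 19 bases. Neither window held a match, on either strand, to the FOXH1 motifs AATCCACA or AATACACA, the SMAD motifs GTCTAGAC or CAGACA, the POU5F1 octamer ATGCAAAT or the SOX2 motif ACAATGG. These letters occur in 0.855%, 0.98%, 0.213%, 21.0%, 1.74% and 3.66% of all windows in that order. Each motif was counted on its own, whether or not it overlapped another.

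Values are reads per peak divided by 1 factor per library, as deposited, and every peak is 201 bp wide, so that levels can be compared between peaks. The reads in peaks ranged from 4434037 to 21161767 per library, with control replicate 1 the deepest. The peaks named here held between 2 and 1071 reads in a library. Of 8 embryonic stem cell marker genes, 7 had a peak within 2 kb of a gene end, and the strongest such peak had a mean value from 37.8 to 344 with a median of 237. Of 4 primitive endoderm genes 2 had one (87.1 and 123), and of 4 fibroblast genes 3 (40.7 to 109). Open chromatin near a marker does not measure its expression. In the test used throughout, limma-trend on log2(value + 1), p-values were adjusted by Benjamini-Hochberg over the 127402 peaks whose mean value reached 10. Of these, 13.9% had an adjusted p under 0.05. Their median log2 change, paused against control, was 0.10 with the deposited scaling, -0.0078 in edgeR with TMM and -0.07 in edgeR with libraries scaled to all reads in peaks.

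None of the 20 peaks nearest to Nodal, Lefty1, Lefty2 or Tdgf1 passed the test in limma-trend (0 of 20, against 13.9% of all tested peaks), and 3 had an unadjusted p under 0.05, against 28.7%. The count was also 0 in edgeR with the deposited factors, in edgeR with TMM and in DESeq2 (all peaks called, 16.5%, 12.7% and 4.55%). There 2, 3 and 1 had an unadjusted p under 0.05, against 38510, 34097 and 22491 of all 127402 tested peaks. The number called was 1 in edgeR scaled to all reads in peaks (all peaks, 12.7%) and 1 after correction for peak strength (8.62%). It was also 1 with the replicate number as a block (17.3%) and 1 without paused replicate 1 (12.4%). Over the whole windows, 95 of the 97 peaks could be tested and 8 passed (8.42%, against 13.9%). Of these 8, 4 were higher in paused samples, against 11.0% of all tested peaks, and 4 were lower, against 2.91%, and all 8 were nearest to other genes. This split depended on the scaling, the filter and single libraries. With a mean of at least 50 reads it was 6 higher and 1 lower (all peaks called, 23.4%), and without control replicate 3 it was 5 and 1 (10.3%). In edgeR it was 6 higher and 5 lower with the deposited factors (all peaks called, 16.5%), 1 and 6 with TMM (12.7%), and 0 and 8 when libraries were scaled to all reads in peaks (12.7%). In limma-trend it was 1 and 5 after TMM rescaling (10.1%) and 0 and 4 after correction for peak strength (8.62%). Leaving out 1 library gave between 2 calls (without paused replicate 4, all peaks called, 9.08%) and 9 (without paused replicate 1, 12.4%). It gave 3 without control replicate 1 (10.2%) and 4 without control replicate 4 (11.1%), paused replicate 2 (10.2%) or paused replicate 3 (12.3%). Over the tested member peaks the median log2 change was -0.0053, and over the 20 peaks nearest to a member 0.02. The 64 tested member peaks not named here had log2 changes from -0.95 to 0.55 and adjusted p of at least 0.0618.

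The 2 peaks that were not tested had mean values of 8.97, in the Foxh1 window inside Kifc2, and 9.92, in the Nodal window nearest to Eif4ebp2. The 4 paused and the 4 control values did not overlap at 11 of the 95 tested peaks, against 17.4% of all tested peaks. One of these 11, inside Tdgf1, was nearest to a member. In the authors' deposited table, 6 of the 97 peaks had an FDR under 0.05, against 11.0% of all peaks, and 0 of the 20 nearest to a member did.

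**Figure D1:**
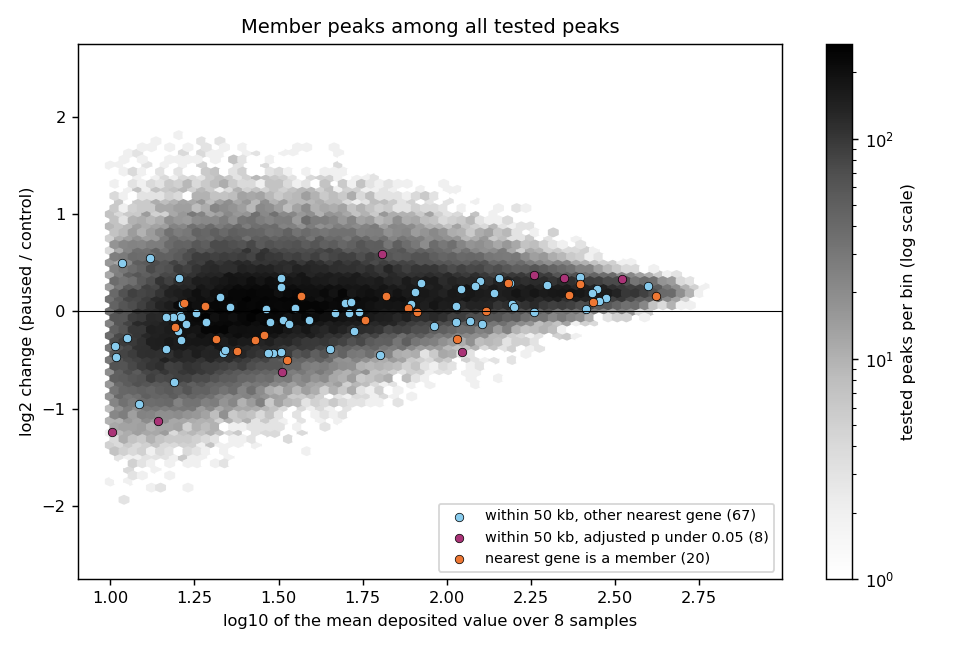
Log2 change (paused against control, y axis) against the log10 of the mean value over 8 samples (x axis) for tested peaks, shown as grey bins (the axis ends at 2.5 on either side of 0 for the bins), with the 95 tested member peaks on top. The 20 peaks nearest to a member (orange) lie within the grey cloud between -0.50 and 0.30, and the 8 peaks that passed the test (purple) are all nearest to other genes.

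The ligand gene Nodal spans chr10:61417972-61425338 on the plus strand. Its most accessible peak, and the one nearest to its start site, was centred 1883 bp upstream (61415989 to 61416189). The value there was 187, 214, 229 and 266 in control replicates 1 to 4 and 217, 285, 289 and 298 in paused replicates 1 to 4. Paused replicate 1 lay within the control range and the other 3 paused samples above it. The means were 224 ± 32.8 and 272 ± 37.2 (SD, n = 4), a log2 change of 0.28 (SE 0.12, 95% interval 0.04 to 0.52), which did not pass (limma-trend adjusted p = 0.108). The peak passed in 2 of 18 alternative settings, and its log2 change over them ran from 0.07 to 0.39. Without paused replicate 1 the log2 change was 0.39 and passed (limma-trend adjusted p = 0.0315). With the replicate number as a block it passed as well (limma-trend adjusted p = 0.0384). After correction for peak strength the log2 change was 0.07 and did not pass (limma-trend adjusted p = 0.726).

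One peak lay inside Nodal, 5488 bp after the start site (61423360 to 61423560). It had values of 130, 129, 141 and 122 in control samples and 120, 134, 158 and 114 in paused samples. The paused values spread on both sides of the controls, and the means, 130 ± 7.67 and 131 ± 19.8 (SD, n = 4), differed by less than the SD of either group. This was a log2 change of 0.0033 (95% interval -0.25 to 0.26, limma-trend adjusted p = 0.990), and its sign changed in 9 of 18 alternative settings.

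The most accessible of the 5 peaks farther upstream was centred 11811 bp before the start site (61406061 to 61406261). Its values were 102, 97.9, 135 and 137 in control samples and 83.1, 80.4, 106 and 117 in paused samples, so that the groups overlapped although 2 paused samples lay below every control. On the log2 scale the change was -0.29 (SE 0.14, 95% interval -0.58 to 0.0044, limma-trend adjusted p = 0.182). It passed in 2 of 18 alternative settings, with a correction for peak strength (-0.48, limma-trend adjusted p = 0.0230) or with edgeR scaled to all reads in peaks (-0.39, edgeR adjusted p = 0.0411). This peak and the one at 1883 bp lay on opposite sides of 0 in all settings run.

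The other upstream peaks of Nodal were weak. Those 15289, 9743, 8150 and 4496 bp before the start site had control means of 35.2, 16.1, 29.7 and 31.0 and paused means of 38.3, 17.0, 24.1 and 26.4. Their log2 changes ran from -0.30 to 0.16 with adjusted p of at least 0.412. A peak 1195 bp beyond the far end of the gene had a control mean of 58.2 ± 5.29 and a paused mean of 55.8 ± 14.4 (SD, n = 4), with a log2 change of -0.09. Of the 8 peaks, 4 were above 0 and 4 below.

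The co-receptor gene Tdgf1 spans chr9:110939608-110946158 on the minus strand. Its most accessible peak lay 1558 bp upstream of the start site (110947616 to 110947816), with values of 200.5, 215, 205 and 251 in control and 246, 257, 241 and 234 in paused samples. Control replicate 4 lay among the paused values and the other controls below them. The change in log2 was 0.17 (SE 0.11, 95% interval -0.05 to 0.39, limma-trend adjusted p = 0.312).

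Inside Tdgf1, 1709 bp after the start site (110944349 to 110944549), the values were 64.0, 62.1, 66.0 and 57.3 in control samples. In paused samples they were 66.9, 66.3, 71.4 and 73.8, all above the controls, the lowest paused value by less than 1 read of its library. That gave a log2 change of 0.16 (SE 0.15, 95% interval -0.14 to 0.45, limma-trend adjusted p = 0.511). The peak 1171 bp beyond the far end of the gene had means of 75.7 ± 11.4 and 77.7 ± 12.2 (SD, n = 4) and a log2 change of 0.03, with overlapping groups. After correction for peak strength the log2 change was below 0 at all 3 Tdgf1 peaks.

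The 2 inhibitor genes lie near each other on chromosome 1, Lefty2 at 180893108 to 180899107 and Lefty1 at 180935022 to 180938401. They are close copies of each other, and how reads that fit both were counted is not given in the sources used here. The strand of these 2 genes was not used here, so distances are from the lower or upper coordinate end. The peak 4374 bp below the lower end of Lefty2 (180888634 to 180888834) was the strongest of all 20 peaks and stronger than 99.7% of the peaks in the table. It had values of 370, 339, 462 and 411 in control and 400.3, 388, 532 and 455 in paused samples. The ranges overlapped, with the highest value of each group in replicate 3. The log2 change was 0.16 (SE 0.11, 95% interval -0.06 to 0.39, limma-trend adjusted p = 0.338), and -0.047 after correction for peak strength.

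Inside Lefty2 (180894359 to 180894559) the values were 127, 139, 152 and 129 in control and 160, 191, 171 and 151 in paused samples, with 1 paused value below the highest control. The log2 change of 0.30 (SE 0.12, 95% interval 0.05 to 0.54) was the largest rise among the 20 peaks and did not pass (limma-trend adjusted p = 0.0924). It did not pass in any of the 18 alternative settings, where the change lay between 0.09 and 0.35.

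The largest fall among the 20 peaks lay 1012 bp above the upper end of Lefty2 (180900019 to 180900219), the peak nearest to an end of this gene. Its values were 34.2, 31.1, 59.3 and 32.3 in control and 26.5, 15.8, 27.9 and 41.0 in paused samples. Control replicate 3 stood apart from the other controls. Over all 8 samples the log2 change was -0.50 (SE 0.24, 95% interval -0.98 to -0.02, limma-trend adjusted p = 0.153), and -0.29 without control replicate 3 and -0.27 without paused replicate 2. Of the other 2 peaks of Lefty2, 7343 and 9094 bp below the lower end, control means were 27.6 and 23.1 and paused means 20.2 and 18.0. Their log2 changes were -0.40 and -0.29 and did not pass (limma-trend adjusted p = 0.266 and 0.501).

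At Lefty1 the most accessible peak lay 10090 bp below the lower end (180924832 to 180925032). Its values were 220, 257, 279 and 298 in control and 268, 298, 268 and 292 in paused samples, so that the paused values lay within the control range. On the log2 scale the change was 0.10 (SE 0.11, 95% interval -0.12 to 0.32, limma-trend adjusted p = 0.578). The peak nearest to the gene, 1004 bp below the lower end (180933918 to 180934118), had values of 72.6, 62.1, 91.4 and 103 in control and 91.1, 69.4, 79.1 and 83.2 in paused samples. Again the paused samples fell inside the control range, with a log2 change of -0.0069 (SE 0.15, 95% interval -0.32 to 0.30). Weak peaks 6708 and 12464 bp below the lower end had control means of 18.3 and 16.5 and paused means of 19.9 and 14.6.

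Foxh1 spans chr15:76667829-76671614 in a gene-dense stretch. Its end peak (76671535 to 76671735) was centred 21 bp beyond the upper end of Foxh1 and 8 bp from Ppp1r16a, so that the 2 genes share it and it counts as nearest to Ppp1r16a. The values were 288, 287, 224 and 217 in control and 276, 290.2, 276 and 307 in paused samples. The controls fell into 2 higher and 2 lower values, and the paused values lay near the higher ones. The change in log2 was 0.19 (SE 0.11, 95% interval -0.04 to 0.41, limma-trend adjusted p = 0.265).

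**Figure D2:**
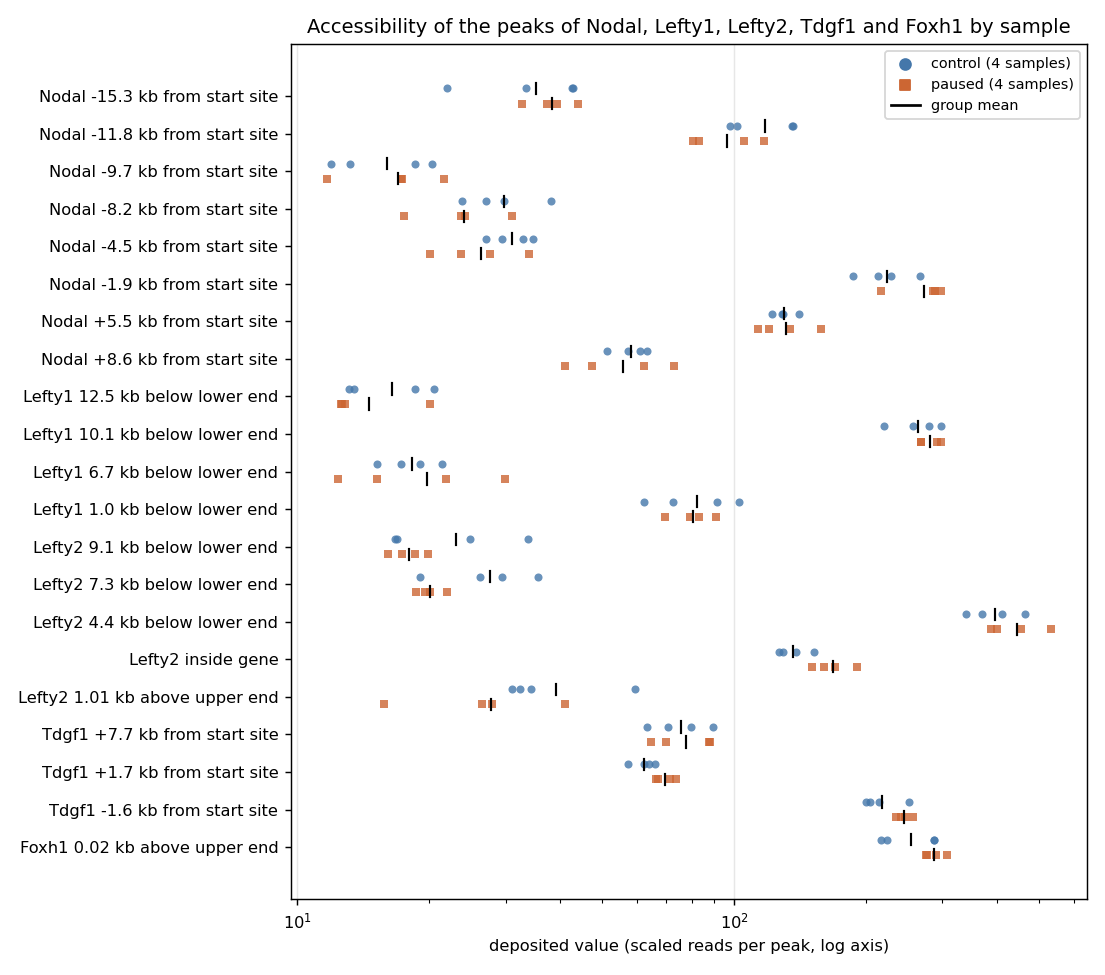
Deposited value per 201 bp peak (x axis, log scale) in each of the 4 control (blue circles) and 4 paused (orange squares) samples, with group means as black bars, for the 20 peaks nearest to Nodal, Lefty1, Lefty2 or Tdgf1 and the end peak of Foxh1 (rows). Control and paused values overlap in every row except the peak 1709 bp after the Tdgf1 start site.

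In control samples the peaks fell into levels that partly could not be separated. The Lefty2 peak at 4374 bp stood highest with 396 ± 53.3 (SD, n = 4), 132 above the next, which is more than the SD of either. It was followed by the Lefty1 peak at 10090 bp (264 ± 33.6), the Foxh1 end peak (254 ± 38.5), the Nodal peak at 1883 bp (224 ± 32.8) and the Tdgf1 upstream peak (218 ± 23.1). Within these 4, neighbours in the order differed by less than the larger SD of the pair. The peak inside Lefty2 (137 ± 11.7) came next, 81.2 below the Tdgf1 upstream peak, which is more than the SD of either. It, the peak inside Nodal and the Nodal peak at 11811 bp (118 ± 21.0) again did not differ beyond their spread. At 3 of the 4 genes with peaks of their own, 1 peak held most of the summed control value of the gene: 69.3% at Lefty1, 63.6% at Lefty2 and 61.2% at Tdgf1. At Nodal the strongest peak held 34.9% in control and 41.1% in paused samples.

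The values of all peaks nearest to a gene were added up per sample as a description, without a test. For Nodal (8 peaks) the sum was 596, 608, 660 and 705 in control and 580, 645, 735 and 687 in paused samples. The paused samples spread on both sides of the controls, and the ratio of the means was 1.03. For Lefty1 (4 peaks) the sum was 324, 354, 405 and 441 in control and 393, 410.1, 380 and 403 in paused samples, with a ratio of 1.04. For Lefty2 (5 peaks) it was 582, 545, 726 and 636 in control and 623, 634, 770 and 685 in paused samples, with a ratio of 1.09. For Tdgf1 (3 peaks) it was 328, 348, 351 and 398 in control and 377, 412, 382 and 396 in paused samples, with a ratio of 1.10. The groups overlapped at all 4 genes. The sum over all peaks of the table had a ratio of 1.12, so that none of the 4 genes rose by more than the whole table.

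**Figure D3:**
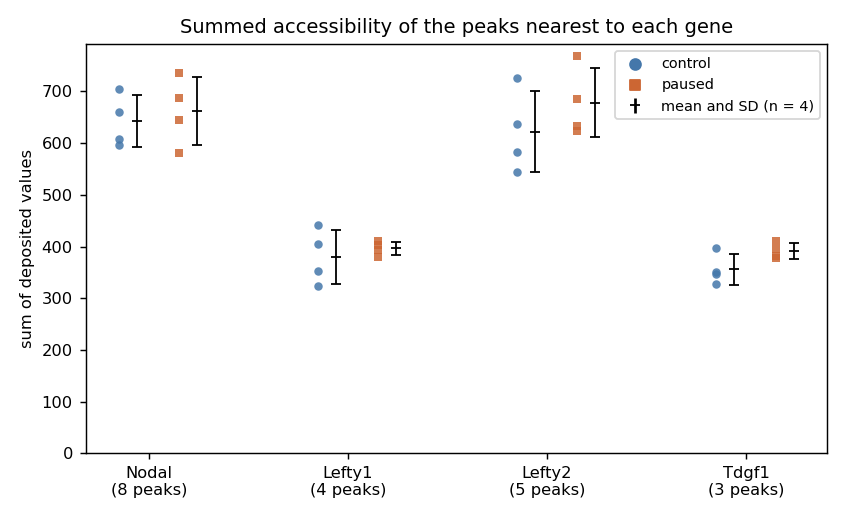
Sum of the deposited values over the peaks nearest to Nodal, Lefty1, Lefty2 and Tdgf1 (x axis, with the number of peaks) in each control (blue circle) and paused (orange square) sample, with mean and SD (n = 4). The 2 groups overlap at each of the 4 genes, and ratios of the means run from 1.03 to 1.10.

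The genes whose summed values followed the most similar course over the 8 samples were found by Euclidean distance between log2 sums, each centred on its own mean, among genes with at least 3 peaks and a sum within 4-fold. For Nodal these were Tgfbr2 and Gm14410, at distances of 0.0716 and 0.0766 against a median of 0.397 over 11323 genes. For Lefty1 they were Vmn2r9 (0.113) and Mlh3 (0.131), for Lefty2 Ccn1 (0.104) and Ano5 (0.126), and for Tdgf1 Fbxw4 (0.0953) and Dnajc12 (0.113). Medians for these 3 genes were 0.466, 0.448 and 0.372. The named genes were picked for the smallest distances, so that these lie below the medians was fixed by the choice. The distances describe 8 libraries that share their scaling.

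The 8 peaks of the windows that passed the test had a neighbouring gene as their nearest gene, and 4 of them rose. Nearness is a position only, and which gene a peak acts on was not measured. In the Lefty2 window a peak 297 bp from Sde2, a gene for a telomere and genome maintenance protein (180850754 to 180850954), went from 265, 311, 299.7 and 299.8 in control to 343, 409, 354 and 380 in paused samples, without overlap. That gave a log2 change of 0.33 (SE 0.10, limma-trend adjusted p = 0.0249). The call was lost without control replicate 1, paused replicate 2 or paused replicate 4 (limma-trend adjusted p from 0.0784 to 0.0955). It was also lost with TMM in edgeR (edgeR adjusted p = 0.120) and in limma-trend (adjusted p = 0.131).

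The second rise in this window was at a peak between Sde2 and Lefty2, 6139 bp from the former and 18856 bp below the lower end of the latter (180874152 to 180874352). Its values were 175, 188, 239 and 187 in control and 217, 229, 304 and 252 in paused samples, with the highest of each group in replicate 3 and an overlap of the groups. The log2 change was 0.34 (SE 0.12, limma-trend adjusted p = 0.0494). The call was lost in 13 of 18 alternative settings, among them those without control replicates 1, 2 or 4 and without paused replicates 2, 3 or 4 (limma-trend adjusted p from 0.0558 to 0.191).

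In the Foxh1 window a peak inside Ppp1r16a, a regulatory subunit of protein phosphatase 1, 15878 bp above the lower end of Foxh1 (76683607 to 76683807), had values of 56.7, 43.0, 52.5 and 51.4 in control and 60.0, 82.0, 94.7 and 73.8 in paused samples. All paused samples lay above all controls. The log2 change of 0.59 (SE 0.16, limma-trend adjusted p = 0.0113) lost its call without paused replicate 3 (limma-trend adjusted p = 0.0529). The other rise in this window was 17 bp from Vps28, a subunit of the ESCRT-I sorting complex (76626001 to 76626201). The control mean was 158 ± 17.1 and the paused mean 205 ± 18.6 (SD, n = 4), with a log2 change of 0.38 (SE 0.12, limma-trend adjusted p = 0.0268) and an overlap of 1 sample. That call was lost in both TMM settings and DESeq2, and without control replicates 2 or 4 or paused replicates 2, 3 or 4 (limma-trend adjusted p from 0.0529 to 0.102). The 4 rises all lost their call in edgeR scaled to all reads in peaks, in DESeq2 and after the correction for peak strength.

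Of the 4 falls, that with the lowest adjusted p was in the Nodal window, 11405 bp from Pald1 and 23021 bp upstream of the Nodal start site (61394851 to 61395051). It had values of 130, 127, 122 and 131 in control and 87.7, 96.2, 107 and 89.0 in paused samples, without overlap. This was a log2 change of -0.42 (SE 0.13, limma-trend adjusted p = 0.0212), between -0.62 and -0.39 over 18 alternatives. The call was lost without control replicate 1 or paused replicates 1 or 4 (limma-trend adjusted p from 0.0543 to 0.0677). It held with DESeq2, where it was the only member peak called, against 4.55% of all peaks.

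The other 3 falls were at weaker peaks. A peak inside Lrrc2, 36451 bp from Tdgf1 (110982509 to 110982709), had a control mean of 39.4 ± 1.67 and a paused mean of 25.5 ± 4.14 (SD, n = 4), without overlap. Its log2 change was -0.62 (limma-trend adjusted p = 0.0331). The call was lost without control replicates 1, 3 or 4 or paused replicates 2 or 3 (limma-trend adjusted p from 0.0642 to 0.0887). A peak inside Als2cl, 39806 bp from Tdgf1 (110899702 to 110899902), had a control mean of 18.9 ± 6.29 and a paused mean of 8.73 ± 4.75 (SD, n = 4), also without overlap. Its log2 change was -1.12 (limma-trend adjusted p = 0.0302). This call was lost without control replicates 3 or 4 or paused replicates 2 or 4 (limma-trend adjusted p from 0.0631 to 0.132). A peak inside Tmem63a, 6150 bp from Lefty1 (180944451 to 180944651), had values of 20.1, 7.17, 11.9 and 19.1 in control and 9.23, 4.73, 6.21 and 2.34 in paused samples. These values rest on as few as 2 reads, the groups overlapped, and the log2 change of -1.24 (limma-trend adjusted p = 0.0427) lost its call without control replicates 1, 3 or 4 or paused replicates 2 or 4 (limma-trend adjusted p from 0.0645 to 0.181). It was also lost with a pseudocount of 0.1 (limma-trend adjusted p = 0.0504). The peaks in Als2cl and Tmem63a lost their call after correction for peak strength as well (limma-trend adjusted p = 0.0847 and 0.122).

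**Figure D4:**
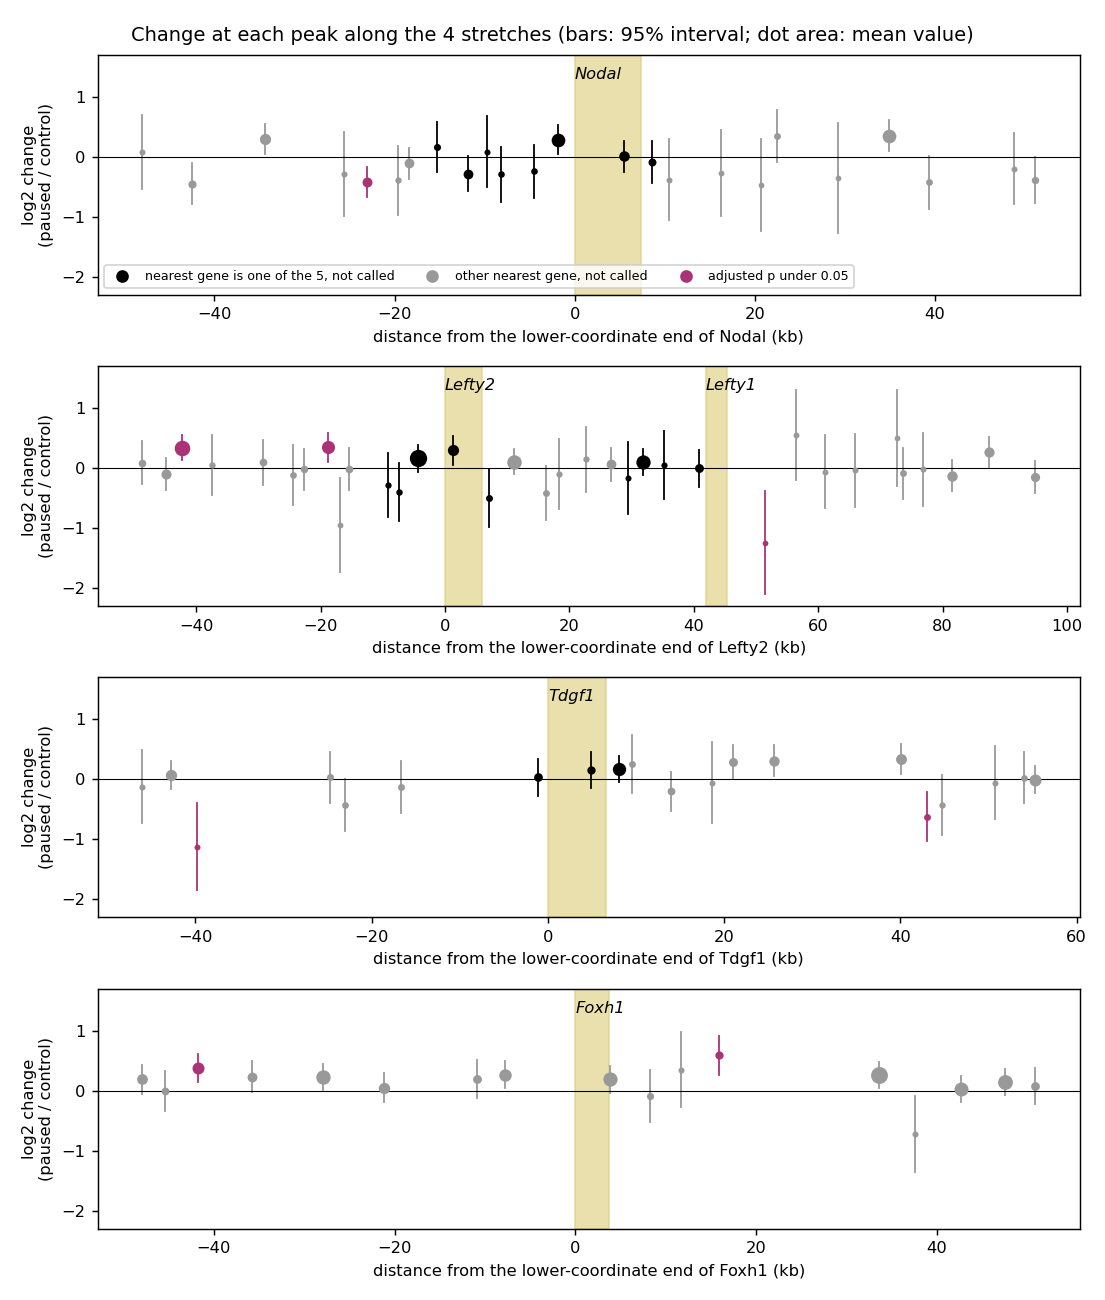
Log2 change with its 95% interval (y axis) at each tested peak against its distance from the lower-coordinate end of Nodal, Lefty2, Tdgf1 or Foxh1 (x axis, kb), with gene spans shaded and dot area by mean value. The 8 peaks that passed (purple) lie at least 6150 bp from the span of a member gene, and of the 20 peaks nearest to a member (black) 3 have an interval that leaves out 0, those inside Lefty2, 1012 bp above it and 1883 bp upstream of Nodal.

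Over all tested peaks 78038 of 127402 had a log2 change above 0 with the deposited scaling, and the position of 0 moves with the scaling. In the Nodal window 8 of 24 tested peaks had a log2 change above 0, with a median of -0.26 and a median mean value of 30.4. In the Foxh1 window 14 of 17 did, with a median of 0.19 and a median mean value of 124. The Tdgf1 window had 10 of 20 above 0, the Lefty1 window 10 of 23 and the Lefty2 window 12 of 25. Peak strength moved with the change across the whole table: the median log2 change was 0.20 in the strongest 10% of tested peaks and -0.20 in the weakest 10%. The windows were not compared by a test, and the part of peak strength in their counts was not tested.

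For the rest of the pathway, 243 peaks were nearest to 26 of 27 listed genes, 234 of them could be tested, and 30 passed (12.8%, against 13.9%), 22 higher and 8 lower, where 11.0% of all tested peaks were higher and 2.91% lower. With TMM in edgeR the split was 16 and 14 (all peaks, 9082 and 7058), and with libraries scaled to all reads in peaks 12 and 21 (all peaks, 6790 and 9405). Their median log2 change was 0.06. Among ligand genes (Gdf1, Gdf3, Inhba and Inhbb, of which Gdf1 had no peak) 1 of 19 tested peaks rose and 0 fell. That peak, 16561 bp from Inhbb, which encodes an activin subunit, had means of 123 ± 9.46 and 181 ± 11.2 (SD, n = 4, log2 change 0.56, limma-trend adjusted p = 0.00126). Among receptor genes 3 of 28 rose and 0 fell, with the lowest adjusted p 9642 bp from Acvr1b, the type I receptor (log2 change 1.08). Among the convertases that process the Nodal precursor 4 of 23 rose, all near Pcsk6, and 1 fell, near Furin.

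Of the Smad transducer genes, 5 of 36 tested peaks rose and 1 fell. Of the inhibitor genes 5 of 83 rose and 4 fell, against 11.0% higher and 2.91% lower over all tested peaks. The inhibitor peak with the lowest adjusted p lay inside Ski, a repressor of Smad complexes, with a control mean of 22.3 ± 3.36 and a paused mean of 49.4 ± 4.19 (SD, n = 4). Its log2 change was 1.12 (limma-trend adjusted p = 0.000154). Of the target genes 4 of 45 rose and 2 fell, and the peak with the lowest adjusted p, inside Eomes, a T-box gene of the primitive streak, had a control mean of 16.2 ± 4.00 and a paused mean of 33.4 ± 7.98 (SD, n = 4). Its log2 change was 1.00 (limma-trend adjusted p = 0.00526). The peaks named here for Inhbb, Acvr1b, Ski and Eomes kept their direction and their call in the 17 or 18 alternatives run for each. They were picked for the lowest adjusted p of their role, so that keeping a call in refits of the same libraries was partly fixed by the choice. The pathway genes' peaks were not compared with the 20 peaks of the members by a test.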

How the data were processed

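ATAC-seq was done on 4 control and 4 paused samples of mouse E14 cells. The submitters' processing notes name FastQC, Trim Galore, Bowtie2 2.4.1, MACS3 3.0.3, DiffBind 3.16.0 and the build mm10, without the role or order of each. The deposited signal values per peak are, in all 8 samples, whole reads divided by 1 factor per sample. Of the values, 100% lay within 0.02, in deposited units, of a whole number of reads so scaled. The deposited table also gives log2 mean values and a log2 fold change, and p-values with an FDR from the authors' own comparison, whose test is not given in the sources used here. Whether and how insertion sites were shifted is likewise not given.

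Gene spans and start sites came from RefSeq tables of GRCm38.p6, the same primary assembly as mm10. Whether a peak lies in an exon or intron was not analysed here. The nearest protein-coding gene was taken from 21896 gene spans. The main test was limma-trend (limma 3.58.1, R 4.3.3) on log2(value + 1) for peaks whose mean value reached 10, Benjamini-Hochberg adjusted, with a call at an adjusted p under 0.05. Alternatives were edgeR 4.0.16 on the recovered read counts (deposited factors, TMM, all reads in peaks), DESeq2 1.42.0, TMM rescaling, a lowess correction on peak strength (span 0.3), a pseudocount of 0.1, no filter, a mean of at least 50 reads, the replicate number as a block, each replicate left out, and a 20 kb window. The scripts were tested on simulated data in which 200 peaks had a log2 change of 1 in either direction. There limma-trend called 93 of them (46.5%) and edgeR 120 (60%), with 1 and 8 false calls. The spread in the simulation was set and not taken from these libraries. Only 200 of the 126808 simulated peaks tested were changed, whereas 13.9% of the real tested peaks were called. The shares recovered and the false calls therefore do not carry over to the real test. A peak that did not pass can still have changed. A count of 3 reads corresponds to a value of 1.04 in the deepest library (control replicate 1) and 5.08 in the shallowest (control replicate 3).

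Peaks named with full values were, by rule, the one nearest to each gene's start site or end, those inside or within 15 kb of Nodal, Lefty1, Lefty2 or Tdgf1 with that gene nearest, and every called peak. The Nodal peak at 15289 bp lies outside this rule and was added after its values were seen. The members and the gene lists were chosen with earlier results of these data known.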

Additional observations from a re-analysis of the deposited data

Results flagged for a closer look

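In 82 groups of 4 values checked, 3 held a sample far from the others of its group, and chance flags about 1 group in 20. At the Nodal peak 1883 bp upstream, paused replicate 1 had a value of 216.87 and the next paused value was 285.49. At the Lefty1 peak 12464 bp below the gene, paused replicate 3 had 20.17 and the next 12.89. At the Lefty2 peak 1012 bp above the gene, control replicate 3, the shallowest library, had 59.27 and the next control 34.22.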

How the results depend on the processing

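Of the 8 called member peaks, 1 remained called in DESeq2 and 0 had a member as nearest gene. After correction for peak strength 4 member peaks were called. Within 20 kb 3 of 49 tested peaks were called (6.12%). Leaving out 1 library gave 2 to 9 calls among member peaks, 11567 to 15806 among all peaks and 0 to 1 among peaks nearest to a member. All peaks gave 17660 calls of 127402 tested (13.9%), and 10487 of 44882 with a mean of at least 50 reads (23.4%). They gave 5794 in DESeq2 (4.55%) and 10981 after correction for strength (8.62%). The pathway list gave 30 calls of 234 (12.8%), 18 of 84 with at least 50 reads (21.4%) and 12 of 234 in DESeq2 (5.13%). Of all calls 13958 were higher and 3702 lower, against 9082 and 7058 with TMM in edgeR, 6790 and 9405 with all reads in peaks, and 6476 and 4505 after correction for strength. Peaks nearest to a member gave 1 call with all reads in peaks, 1 after correction for strength and 1 with the block. With the replicate number as a block, 13 member peaks (8 higher, 5 lower, 13.7% of those tested) and 21994 of all peaks (17.3%) were called. To compare control with paused samples, the mean of the own group was first subtracted from each log2 value at every tested peak. On these remainders same-numbered samples correlated at 0.0790, 0.0358, 0.133 and 0.0395, and samples of different numbers at -0.105 to 0.0703. Such coefficients do not measure how alike whole libraries are. Control replicate 2 and paused replicate 2 each correlated best with a sample of another number, and the other samples with their own. The labels do not name pairs, and the main fit did not use the numbers. Whether samples of 1 number share a batch was not tested.

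Log2 changes turned sign only at peaks that had not passed. After correction for strength they were -0.038 (Tdgf1, 1558 bp), -0.047 (Lefty2, 4374 bp), -0.019 (Foxh1 end), -0.0090 (inside Tdgf1), -0.11 (Lefty1, 10090 bp), -0.14 (Tdgf1, 1171 bp) and -0.20 (inside Nodal). With all reads in peaks they were -0.012 (Foxh1 end), -0.014 (inside Tdgf1), -0.034 (Lefty1, 10090 bp), -0.065 (Tdgf1, 1171 bp), -0.044 (Lefty1, 6708 bp), -0.14 (Nodal, 15289 bp), -0.16 (inside Nodal) and -0.22 (Nodal, 9743 bp). After TMM rescaling in limma-trend they were -0.00053 (Lefty1, 10090 bp), -0.067 (Tdgf1, 1171 bp), -0.046 (Lefty1, 6708 bp), -0.098 (inside Nodal) and -0.014 (Nodal, 9743 bp). At Tdgf1 (1171 bp), Nodal (15289 bp), inside Nodal and Nodal (9743 bp) they were -0.0074, -0.082, -0.10 and -0.16 in edgeR with TMM and -0.036, -0.039, -0.10 and -0.093 in DESeq2. In edgeR with the deposited factors they were 0.041 (Lefty1, 1004 bp) and -0.052 (Nodal, 9743 bp). Leaving out 1 library gave -0.047 to 0.12 (Tdgf1, 1171 bp), -0.16 to 0.24 (Lefty1, 6708 bp), -0.046 to 0.26 (Nodal, 15289 bp), -0.13 to 0.11 (Lefty1, 1004 bp), -0.089 to 0.069 (inside Nodal), -0.040 to 0.24 (Nodal, 9743 bp) and -0.23 to 0.044 (Nodal, 1195 bp past the end). The cause was not tested. Weak peaks rest on few reads in the shallow libraries. In the weakest 10% of tested peaks 5.59% were called, and in the strongest 10% 18.2%.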

Other observations

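Within the Nodal window, a peak 51 bp from Eif4ebp2, which encodes the mTOR-regulated translation repressor 4E-BP2, was looked at after its values were seen (chr10, 61452741 to 61452941). Its values were 219, 285, 171 and 204 in control and 346, 226, 285 and 259 in paused samples, with overlapping groups. The log2 change was 0.35 (SE 0.13, 95% interval 0.09 to 0.61) and did not pass (limma-trend adjusted p = 0.0645). It passed in 5 of 18 alternative settings, among them without control replicate 2 (0.48, limma-trend adjusted p = 0.0087) and without paused replicate 2 (limma-trend adjusted p = 0.0327). A weaker peak at the other end of the gene had control and paused means of 17.2 and 12.2 and a log2 change of -0.38 (limma-trend adjusted p = 0.476).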
